A study of Mus musculus with 2 samples.

Results

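A recurring group of mouse DNA segments was described that was first recognised by the distances between its CpGs and by much lower methylation in one of 2 haploid embryonic stem cell lines than in the other. Runs of 5 consecutive compared CpGs were taken where the 4 distances in bp read 4-5-7-7, 7-5-4-29, 5-7-7-35, 5-4-29-24, 2-15-24-29 or 2-2-15-24 in either orientation, and overlapping runs were merged into 1 copy. A CpG was compared where at least 10 reads covered it in both libraries. This gave 719 copies with 4554 CpGs, or 0.442% of the 1030368 compared CpGs.

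The study profiled chromatin and methylation in haploid stem cells. A129-2 is of strain 129Sv and AOS-14 of strain C57BL/6. Each line came from AG-haploid embryos, taken here as androgenetic, with its only chromosome set from sperm, and was sorted by flow cytometry and grown in embryonic stem cell medium, with no treatment named. There was 1 library per line, so line and strain cannot be told apart, no difference has a replicate check, and each measured value belongs to these libraries. The A129-2 table held 153035567 reads at 1699405 CpGs and that of AOS-14 held 178315194 reads at 1819756 CpGs.

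Methylation of cytosine at CpG is copied to the new strand after replication by DNMT1 with UHRF1 and is set anew by DNMT3A and DNMT3B. Most repeated DNA of mammals is kept methylated, which holds transposons and satellites silent. Embryonic stem cells in culture can lower methylation across the genome, and repeats of different kinds keep different shares of it. Methylation level here is the percent of bisulfite reads at a CpG that kept their C.

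The 6 runs chained into 1 pattern with 11 CpG positions, at 0, 2, 4, 19, 43, 72, 76, 81, 88, 95 and 130 bp from the first. The deposited tables give 5 reference letters around each CpG, and these were laid on the pattern to see whether the copies share more than their distances. The consensus below is shown because it defines what the copies have in common; capitals mark the CpGs, n marks bases for which the tables hold no letters, and it runs 5′ to 3′ over 136 bases of which 55 are known.

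consensus, positions 1 to 11: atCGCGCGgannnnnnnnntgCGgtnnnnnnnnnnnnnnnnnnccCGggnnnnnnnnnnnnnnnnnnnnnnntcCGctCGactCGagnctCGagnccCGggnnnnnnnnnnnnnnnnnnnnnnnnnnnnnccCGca
core, positions 6 to 10: tcCGctCGactCGagnctCGagnccCGgg

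The letters split the copies into classes with nothing between them. In 687 copies, 0 to 22.2% of the readable letters differed from the consensus, and 418 of them had no difference. In the other 32 copies 53.3 to 100% counted as differing, and these were taken to share the distances only. For 1 of them, found in both orientations, the letters were not compared and all were counted as differing. Stretches of 2 of these, read from RefSeq promoter sequences of GRCm38.p6 (the assembly of the files' build, mm10), are shown to set against the core. Capitals mark only the CpGs of the copy, and the LOC115486438 stretch starts with a further CpG in small letters.

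Tssc4 promoter, chr7:143069147-143069175, forward strand: ccCGgcCGggaCGgcttcCGacaggCGaa
LOC115486438 promoter, chr13:54504337-54504365, reverse strand: cgCGccCGcctCGaggtcCGggtggCGgc

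Levels followed this split. The 687 matching copies had a mean level of 20.4% ± 8.98 (SD over copies) in A129-2 and 58.5% ± 8.93 in AOS-14. The 32 copies with the distances alone had 2.65% ± 2.60 and 3.44% ± 3.97. Of the latter, 29 lay inside annotated genes. The copies in Adam10 (chr9:70679330-70679374) and Tbc1d12 (chr19:38837279-38837303) were at 0% in both lines, with a median of 34 and 56 reads per CpG in A129-2 and AOS-14 for the first and 30 and 34 for the second. As neighbouring CpGs of a copy can lie on the same reads, the limit is given per CpG at the median depth. No methylated read allows levels up to 8.82% and 5.36% in the first and 10% and 8.82% in the second, for counting error only. The copies with the distances alone thus had low levels in both lines, and the difference between the lines lay in the 687 copies with shared letters. At the Tssc4 promoter A129-2 had 4.33% and AOS-14 9.57%. At the LOC115486438 promoter, inside Simc1, the levels were 1.15% and 2.98%. Some of these copies were slightly higher in A129-2, such as those in Zfp598 (chr17:24670088-24670112) at 4.49% and 2.00%, in Nexmif (chrX:104200635-104200659) at 1.64% and 0.29%, in 9930021J03Rik (chr19:29805908-29805932) at 6.57% and 5.22%, and in the overlapping Gm36199 and Gm36486 (chr17:29437415-29437439) at 4.44% and 1.40%.

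**Figure D1:**
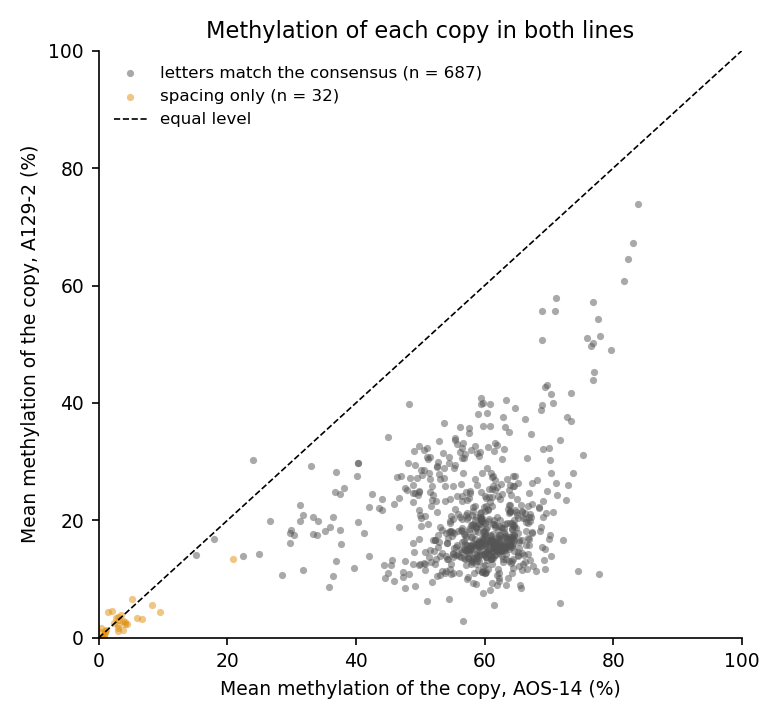
Mean methylation of each copy in AOS-14 (x axis, %) and A129-2 (y axis, %), 1 point per copy, grey for copies whose letters match the consensus and orange for copies with the distances only; the dashed line marks equal levels. The orange points reach at most 20.9% in AOS-14 and 13.4% in A129-2, and the grey points lie below the line except for 1 copy.

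Over all 4554 member CpGs A129-2 averaged 19.5% and AOS-14 56.9%, with a difference of -37.4 points and a ratio of 0.343. In A129-2, 2.83% of member CpGs were at 50% or more, and in AOS-14 70.5%. A call needed 25 or more points between the lines and a Benjamini-Hochberg adjusted p under 0.05, over all compared CpGs, in Fisher's exact test. As lower in A129-2, 3561 member CpGs (78.2%) were called, and 0 as higher, while 4.08% of all compared CpGs were called lower and 0.0297% higher. The distances were picked with this contrast known, so the count describes how the group was chosen. Of the 719 copies 705 were lower in A129-2, as were 686 of the 687 matching ones, and in 669 of these every CpG was lower. At any size of difference, 62.4% of all compared CpGs were lower.

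Member CpGs were read deeply, A129-2 having a median of 194 reads and AOS-14 of 255.5, against 79 and 97 over all compared CpGs. The deepest had 28141 and 23078. They held 3.41% and 3.27% of the reads on compared CpGs. How reads that match several places were treated is not given in the sources used here, so a copy's level may hold reads of other copies, and the SD over copies may understate their spread. Exact 95% binomial intervals for a level of 50% ran from 39.8% to 60.2% at 100 reads and from 18.7% to 81.3% at 10 reads, for counting error only. In 4 groups of nearly equal number of matching copies by AOS-14 depth, from a median of 96 to 1566 reads in that library, the A129-2 mean ran from 19.5% to 21.2% and the AOS-14 mean from 57.5% to 59.1%. The 55 copies whose thinnest CpG had 10 to 14 reads were at 21.2% ± 11.5 and 52.1% ± 16.5, and the 102 copies found only with a minimum of 5 reads were at 24.6% ± 11.7 and 50.5% ± 13.1.

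Across the 687 matching copies the Pearson r of the line levels was 0.233, a description only, since near-identical copies may share reads. The middle 50% of copies spanned 14.9 to 23.9% in A129-2 and 55.2 to 63.3% in AOS-14. The extremes reached 2.94% and 73.8% in A129-2 and 15.1% and 83.8% in AOS-14.

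Levels differed along the copy, with a profile that both lines shared in part. In matching copies the AOS-14 mean was highest at position 6, with 72.5% ± 10.6 (SD over 612 copies). The A129-2 mean was highest at position 3, with 31.8% ± 19.4 over 175 copies. The A129-2 median was instead highest at position 10, with 27.9% against 25.8% at position 3. Both lines were lowest at position 11, with 42.1% ± 6.15 in AOS-14 and 7.94% ± 4.89 in A129-2 over 184 copies. From position 6 to position 9 the level went down step by step in both lines. AOS-14 went from 72.5% through 62.0% and 51.3% to 47.6%, and A129-2 from 21.3% through 19.8% and 15.7% to 13.4%. Position 10, at 7 bp from position 9, was higher again at 67.1% ± 9.32 and 28.4% ± 9.74 over 488 copies. The ratio of A129-2 to AOS-14 was 0.189 at position 11, 0.294 at position 6, 0.423 at positions 4 and 10, and 0.477 at position 3. The ratio was thus lowest where the AOS-14 level was lowest, and position 6 combined the highest AOS-14 level with a ratio below that of positions 5 and 10.

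**Figure D2:**
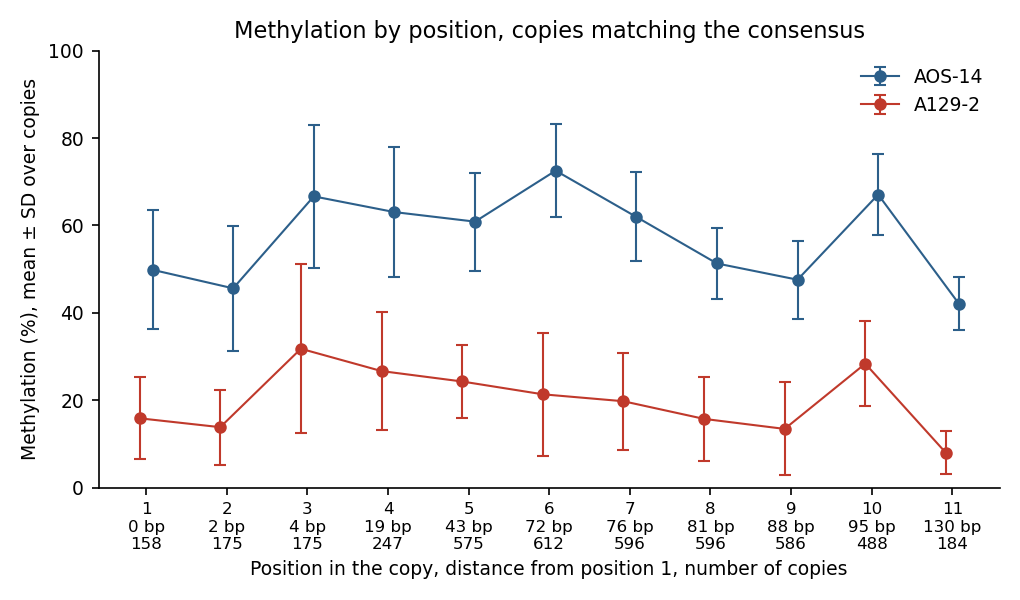
Methylation (y axis, %, mean ± SD over copies) at the 11 positions of matching copies (x axis, with the distance from position 1 and the number of copies), AOS-14 in blue and A129-2 in red. Both lines step down from position 6 to position 9, are higher at position 10 and are lowest at position 11.

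The profile held in copies read at every position, where each position rests on the same set of copies. The positions do not rest on the same reads. In A129-2 the median depth was 160 reads at position 3 and 920 at position 6, and reads of other copies may be among them. There were 60 of these, at 35 loci, all on chromosome 10. Position 11 was the lowest of the 11 in 38 of 60 copies in A129-2 and in 39 of 60 in AOS-14. Position 6 was the highest in 39 copies in AOS-14 and in only 4 in A129-2, where position 10 was the highest in 24 and position 3 in 19. Position 6 was above position 10 in 59 of 60 copies in AOS-14, whereas position 10 was above position 6 in 49 of 60 copies in A129-2. The order of positions 6 and 10 thus differed between the lines in most of these copies, with both strands pooled. Of these, 35 copies at position 6 and 10 at position 10 were read on both strands. On the copy's own strand A129-2 was at 23.96% and 19.64% at positions 6 and 10, and AOS-14 at 74.25% and 60.81%. On the opposite strand A129-2 was at 26.29% and 33.05%, and AOS-14 at 80.24% and 71.17%. In these means, from unlike sets of copies, the order differed between the lines on the opposite strand only.

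The deepest complete copy lay inside Afg1l, a gene for a mitochondrial AAA-type ATPase, at chr10:42375115-42375246. From position 1 to 11 its A129-2 levels were 11.9, 9.71, 25.3, 21.5, 22.7, 13.9, 14.3, 12.6, 8.79, 20.9 and 9.04%. Its AOS-14 levels were 59.1, 54.4, 74.4, 75.4, 65.6, 68.8, 57.9, 51.3, 43.0, 59.9 and 42.6%. The highest A129-2 value, 25.3%, was below the lowest AOS-14 value, 42.6%, so the lines did not overlap at any CpG of this copy. Depth was uneven, from 174 to 18906 reads in A129-2, with positions 5 to 9 read most.

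Depth and strand moved with position. Position 5 lay in CCGG in 99.8% of copies and position 10 in 99.2%, and CCGG is the cut site of the enzyme used in reduced representation bisulfite sequencing, which the series title names, while the protocol in the labels describes capture. Reads from the copy's own strand made up 96.1% of reads at position 5 in A129-2 and 89.3% in AOS-14, about 80% and 64% at positions 6 to 9 (79.2 to 80.0% and 63.5 to 64.4%), and 17.2% and 21.6% at position 10. At position 6, over the 436 copies read on both strands, A129-2 was at 19.2% on the own strand and 27.8% on the opposite strand, and AOS-14 at 68.6% and 77.6%. At position 10, over 53 copies, the own strand gave 19.9% and 56.4% and the opposite strand 31.3% and 71.5%. On each strand A129-2 was below AOS-14 at all 11 positions, and the part of strand in the position profile was not tested.

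The copies stood in tandem. Of 257 pairs of neighbouring matching copies under 5 kb apart in the same orientation, 181 were exactly 208 bp apart, 32 were 416 bp apart and 12 were 624 bp apart, so that 227 stood at a whole multiple of 208 bp. A smaller set of 13 pairs was 201 bp apart. No pair under 5 kb had opposite orientations. Neighbouring copies of the same orientation were joined into a locus where their places for position 1 lay less than 1000 bp apart. This gave 425 loci, of which 303 held 1 copy, 122 held 2 or more, and 12 held 5 or more with 113 copies in all.

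**Figure D3:**
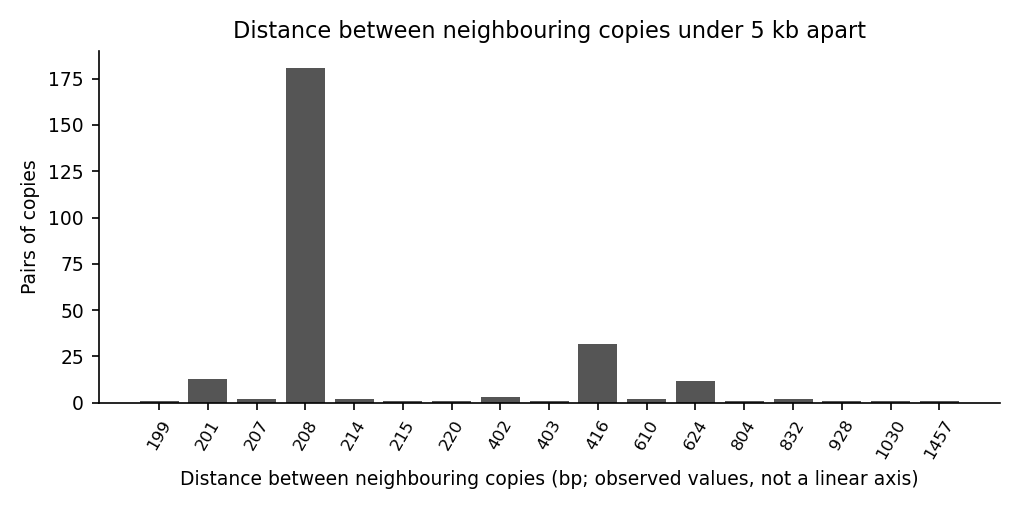
Number of neighbouring pairs of matching copies (y axis) at each observed distance under 5 kb (x axis, bp, listed values and not a linear axis). The bar at 208 bp holds 181 of 257 pairs, and 416 and 624 bp follow.

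Chromosome 10 held 247 of the 687 matching copies (36.0%) and 22.6% of the loci, against 6.18% of the compared CpGs. The remaining 440 copies were spread over the other autosomes, X (32 copies) and Y (3 copies). A sperm carries X or Y, while both tables list compared CpGs on both, with 1672 on Y, so reads placed on Y may come from elsewhere, which was not tested. Levels on chromosome 10 were 19.9% ± 8.38 and 58.2% ± 7.56, and elsewhere 20.7% ± 9.30 and 58.6% ± 9.62, which differed by far less than the spread between copies. Chromosome 14 had the highest A129-2 mean, 30.9% over 34 copies, with 60.1% in AOS-14. On the other autosomes and X, A129-2 ran from 17.2% (45 copies on chromosome 3) to 24.1% (37 on chromosome 16) and AOS-14 from 52.7% (8 on chromosome 19) to 64.4% (on chromosome 16). The 3 copies placed on Y were at 16.5% and 65.9%.

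The largest locus, with 34 copies over 6977 bp at chr10:27818642-27825618, lay outside annotated genes nearest to Gm30228. Its copies were at 17.8% ± 2.74 in A129-2, from 13.4 to 25.8%, and at 61.7% ± 2.37 in AOS-14, from 55.6 to 67.1%. A locus of 12 copies at chr3:6298834-6304711 had 13.8% ± 3.23 and 63.8% ± 3.60. In both arrays every copy of A129-2 was below every copy of AOS-14. Locus size went with a modest shift. Lone copies were at 21.2% ± 9.19 and 56.6% ± 11.1, copies in loci of 2 to 4 at 20.01% ± 8.95 and 60.02% ± 6.81, and copies in loci of 5 or more at 18.8% ± 8.28 and 59.9% ± 5.44. After each CpG was set against the mean of its position, copies of the same locus differed with an SD of 5.89 points in A129-2 and 4.87 in AOS-14, and locus means with an SD of 7.30 and 4.79.

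The letters of the core sorted copies further. Positions 6 to 9 could be read in 568 copies and fell into 18 versions, of which the most frequent are shown because their levels differ; n marks letters that were not compared.

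version 1: cCGctCGantCGannntCGa
version 2: cCGctCGantCGtnnntCGa
version 3: cCGctCGantCGannncCGg

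Version 1, in 355 copies at 223 loci on 21 chromosomes, had a core level of 17.1% ± 9.21 for A129-2 and 59.1% ± 7.51 for AOS-14. Version 2, in 109 copies at 87 loci, had 15.1% ± 11.5 and 60.8% ± 5.88, with 23 copies on chromosome 16 at 26.2% and 65.8%. Version 3, in 43 copies at 32 loci, had 30.1% ± 9.17 and 52.7% ± 6.62. The A129-2 level over the AOS-14 level was 0.290 for version 1, 0.248 for version 2 and 0.571 for version 3. Copies with a ratio under 0.45, a limit chosen after the values were seen, numbered 313 of 355, 98 of 109 and 2 of 43.

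The higher ratio of version 3 was not that of a single chromosome. It was 0.42 (1 copy, on chromosome 3) to 0.69 on each of its 8 chromosomes, and 0.520 over 11 copies on chromosome 10, where version 1 has 155 copies. The highest chromosome values of version 2 came close to the lower end, with 0.398 over 23 copies on chromosome 16 and 0.410 over 2 copies on chromosome 4. The 32 loci of version 3 had means of 27.7% ± 5.17 in A129-2 and 51.03% ± 4.38 in AOS-14, against 16.9% ± 9.03 and 58.2% ± 7.89 for the 223 loci of version 1. These are means of positions 6 to 9, on which the highest locus in A129-2, an array of 6 copies on chromosome 14 (chr14:68475856-68477711, inside Gm31227), was at 45.96% and 63.4%. Distances between neighbours were also counted by version, where the neighbour may be of another version. For version 3, 10 of 17 pairs stood at a multiple of 201 bp and 5 at a multiple of 208 bp. For version 1, 138 of 147 pairs stood at a multiple of 208 bp. Several of the version 3 pairs may come from the array of 6 copies on chromosome 14.

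At position 9 the letter after the CpG went with a large difference. With G after the CpG A129-2 was at 39.0% ± 11.9 and AOS-14 at 58.6% ± 9.03 over 46 copies, and with A after it at 11.2% ± 7.11 and 46.6% ± 8.28 over 540 copies. The letter before the CpG did not go with it alone, since in 6 copies with C before and A after (version 6) position 9 was at 12.3% and 46.2%. G after the CpG was seen only together with C before it, so the letter after it could not be judged apart from the whole CCGG. In version 3 position 9 has C before and G after, a CCGG, a site that versions 1 and 2 lack there. Position 6, where the compared letters are the same in all 3 versions, was at 36.9% and 65.0% in version 3 against 20.8% and 74.2% in version 1. The A129-2 level of version 3 was therefore higher, and its AOS-14 level lower, at a CpG whose compared neighbouring letters were the same. Whether fragments that start at the added CCGG have a part in these levels was not tested.

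**Figure D4:**
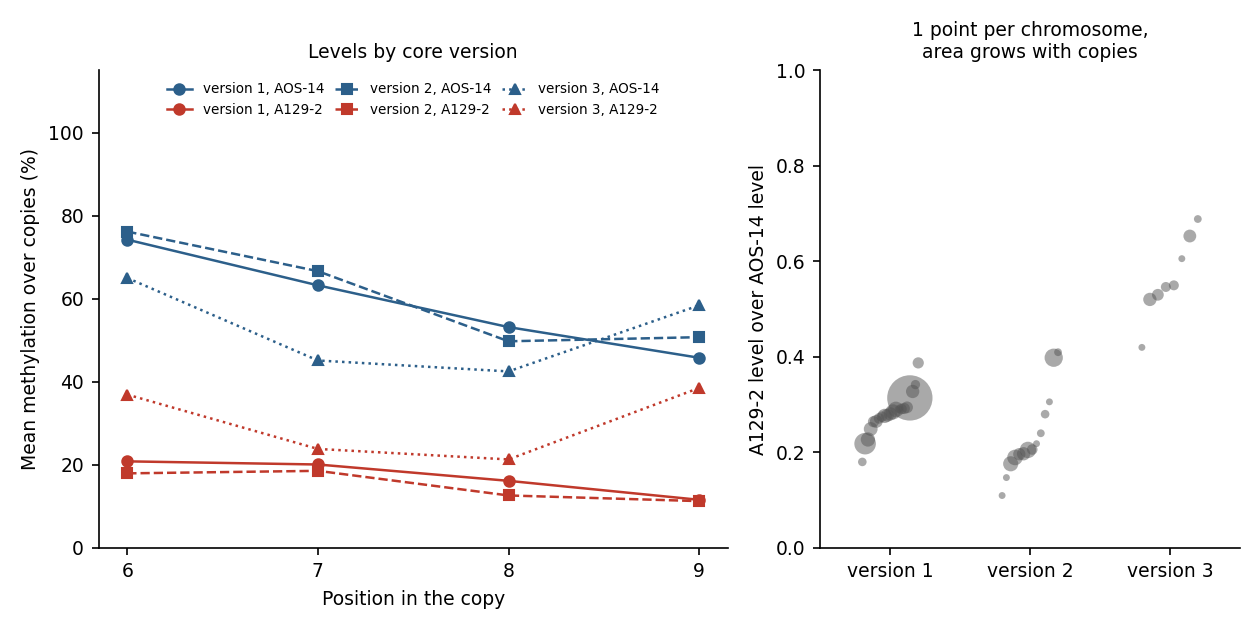
Left, mean methylation (y axis, %) at core positions 6 to 9 (x axis) for versions 1, 2 and 3 (355, 109 and 43 copies; circles, squares, triangles) in AOS-14 (blue) and A129-2 (red). Right, A129-2 level over AOS-14 level, 1 point per chromosome, with point area growing with the number of copies; version 3 lies at 0.42 or higher.

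Copies that held positions 1 to 5 only, 57 in number, stood closer in the 2 lines, with 23.4% ± 9.25 and 47.7% ± 15.5 and a ratio of 0.491. In full copies the same 5 positions had AOS-14 means of 53.2 to 73.4%, and in these partial copies 38.8 to 59.0%. The 5 matching copies with the least difference were all of this kind and all alone at their locus, which was seen only after their values were known. The copy at chr1:6151011-6151055, at 30.3% in A129-2 and 23.9% in AOS-14, was the only matching copy with a higher mean in A129-2. Its 5 CpGs read 22.6, 17.2, 50.8, 41.5 and 19.4% in A129-2 and 20.2, 15.3, 37.8, 32.0 and 14.3% in AOS-14, so position 3 was highest and position 4 next in both lines. The others were chr11:110795692-110795736 at 14.2% and 15.1%, a copy in the cytochrome P450 pseudogene Cyp2c53-ps (chr19:39249093-39249137) at 16.8% and 17.9%, a copy in Schip1 and the overlapping Iqschfp (chr3:68525160-68525204) at 29.3% and 33.0%, and chr15:19626242-19626286 at 19.8% and 26.6%.

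The most negative differences were at copies that held the core. At chr3:21324584-21324608 positions 6 to 10 read 13.3, 10.3, 11.4, 10.6 and 9.09% in A129-2 and 85.3, 85.3, 72.2, 67.8 and 78.1% in AOS-14, over 548 and 1039 reads summed over the CpGs. At chr5:52902435-52902459 the means were 6.00% ± 8.34 (SD over 5 CpGs) and 71.7% ± 13.9, and at chr14:28620965-28620989 11.3% ± 4.72 and 74.5% ± 12.1. A copy inside Gm2046 (chr12:87979730-87979783) was at 11.7% and 69.4%, and a copy inside the major urinary protein pseudogene Mup-ps15 (chr4:61686474-61686527) at 8.50% and 65.6%. Every CpG of these 5 copies was called lower in A129-2.

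A few copies stayed methylated in both lines. The highest in A129-2, chr14:87796649-87796712, was at 73.8% ± 20.9 and 83.8% ± 16.8, with position 6 at 97.2% of 72 reads and 100% of 165 reads. Neighbours in an array at chr10:118910864-118910934 and chr10:118910656-118910726 had A129-2 levels of 67.2% and 64.6% and AOS-14 levels of 83.1% and 82.4%. No CpG of these 3 copies was called. A complete copy in Nav3, which encodes a microtubule-associated neuron navigator protein, at chr10:110364468-110364599, had a mean of 43.0% ± 27.7 in A129-2 and 69.7% ± 16.8 in AOS-14. Its position 3 was at 94.4% and 96.8% and its position 6 at 90.9% and 99.5%, while its position 11 was at 6.93% and 44.5%, so neighbouring CpGs of 1 copy ranged from nearly equal to far apart.

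CpGs highly methylated in AOS-14, whatever their A129-2 level, sat mostly at positions 3 and 6. Position 6 also had the highest AOS-14 mean of all positions, 72.5%. In all, 37 CpGs of 33 matching copies were at 90% or more in AOS-14, 22 of them at position 6 and 11 at position 3. Their A129-2 mean was 74.3%, with 68.5% at position 6 and 87.1% at position 3. The A129-2 levels ran from 19.1 to 97.2% at position 6 and from 70.8 to 95.8% at position 3. In A129-2, 3 of the 22 at position 6 and 6 of the 11 at position 3 were also at 90% or more. The other 190 CpGs of those 33 copies were at 33.2% in A129-2 and 66.0% in AOS-14.

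Most of the family lay outside genes. Of the matching copies 212 (30.9%) lay inside an annotated gene, whereas 72.3% of compared CpGs did and 47.9% of those at 50% or more in AOS-14. The copies outside genes were a median of 29.98 kb from the nearest one. The gene table gives no exons, so exon and intron were not distinguished, and 0 matching copies overlapped a RefSeq promoter sequence. Inside genes the levels were 21.4% ± 10.2 and 57.9% ± 9.62, and outside 19.9% ± 8.33 and 58.8% ± 8.60.

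There were 160 matching copies in 97 genes with a proper name. Complete copies lay in Syne1, which encodes a nuclear envelope spectrin-repeat protein, at 16.6% and 59.2% (chr10:5388815-5388946), in Ctnna3, an alpha-catenin of cell junctions, at 13.9% and 60.3% (chr10:63663514-63663645), and in Clvs2, a lipid-binding protein of clathrin-coated vesicles, at 12.5% and 57.8% (chr10:33578375-33578506). Cfap54, a cilium protein, had a copy at 17.7% and 63.2% (chr10:93060303-93060434). Ros1, a receptor tyrosine kinase, had a copy at 30.7% and 56.5% (chr10:52140705-52140836). Nav3 also held an array of 7 copies at 25.5% ± 4.39 and 52.2% ± 3.32 (chr10:110015118-110016497). In 4 of these copies, read at all positions, 3.70% of the letters differed from the consensus. Apart from the Nav3 and Ros1 copies, every CpG of these copies was called lower.

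The same letters occurred where the distance rule did not reach. Searching positions 4 to 11 for at least 4 compared CpGs with the consensus letters on both sides, at places where no CpG belonged to a copy, gave 767 further units with 3412 CpGs. This search was added after the data were seen, with letters and positions taken from the copies. The units hold no complete run of the rule, but they were picked with the family's own pattern and may share reads with the copies. Their levels are thus no check apart from the choice of the family. The units were at 18.001% ± 8.90 in A129-2 and 55.9% ± 9.86 in AOS-14 (SD over units), and 763 of 767 were lower in A129-2. Of their CpGs 2825 (82.8%) were called lower and 0 higher, against 4.08% and 0.0297% of all compared CpGs.

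Many of these units lacked a compared CpG inside the pattern. Position 7 was missing in 248 of the 689 units that reached across it (36.0%), position 6 in 26.7% and position 8 in 20.1%. The position profile resembled that of the copies, with AOS-14 at 66.2, 54.8, 48.0 and 44.5% from position 6 to 9 and 66.5% at position 10, and A129-2 at 18.6, 16.0, 13.4, 10.2 and 29.1%. Only 26 of the 767 units were on chromosome 10, where the copies found by the rule were most frequent. Levels close to those of the copies were thus measured in units that lacked the complete distances and mostly lay on other chromosomes.

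Other CpGs of the same AOS-14 level had a higher A129-2 mean when pooled, but some other recurring sequences had levels as low. Between 50 and 60% in AOS-14, the 1092 CpGs of matching copies were at 17.7% in A129-2, whereas 33860 CpGs outside the copies and the 767 units were at 31.1%. Between 60 and 70% the values were 22.2% and 37.4%, and between 70 and 80% 24.8% and 44.0%. Other sequence that recurs was taken as runs of 5 CpGs with the same distances, none over 60 bp, and the same neighbouring letters at 50 or more places, a set added after the data were seen. It was at 27.7% in A129-2 for AOS-14 levels of 50 to 60% (1512 CpGs), and over all its 24465 CpGs at 13.02% and 20.7%. That pooled set mixes unlike patterns. Of its 98 patterns with no CpG in the 767 units, 59 had an AOS-14 mean under 20%, while 7 had a ratio of 0.238 to 0.322, below the 0.343 of the family. One of the 7, with distances of 6-5-31-34, had a mean A129-2 level of 16.7% against 52.5% for AOS-14. The other 6 had means of 8.43 to 11.7% and 32.2 to 36.7%. Their distances and letters chain, as in 12-2-6-36, 2-6-36-6 and 6-36-6-16, and each held 265 or 270 CpGs. The 7 together held only 981 distinct CpGs, so these 6 are overlapping windows of a shared sequence and not separate sequences. The 98 and the 59 patterns were counted in the same way and may also include overlapping windows. The CpGs of matching copies between 30 and 40% in AOS-14 were at 13.9% in A129-2, so A129-2 levels this low beside like AOS-14 levels also occurred outside the family. With distances alone, 852 other recurring patterns were at 4.07% and 6.37%, and 99506 other runs with a span of 23 to 70 bp at 4.81% and 7.18%. No test of these differences was made, because the family was chosen on this contrast. Below 10% and between 10 and 20% in AOS-14 the matching copies held only 6 and 19 CpGs, too few to compare.

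The sequence around the copies was also methylated, and the difference between the lines was smaller beyond 1 kb. It was -29.04 to -31.95 points in the bins up to 1000 bp, then -22.1, -18.3 and -11.1 points in the bins ending at 2000, 5000 and 10000 bp. Compared CpGs at 1 to 50 bp from a matching copy were at 16.0% ± 11.2 (SD over 614 CpGs) in A129-2 and 45.6% ± 18.4 in AOS-14. At 501 to 1000 bp the values were 20.7% ± 15.4 and 50.7% ± 19.2, and at 5001 to 10000 bp 16.7% ± 12.6 and 27.9% ± 18.2. The ratio was 0.352 in the nearest bin, 0.408 at 501 to 1000 bp and 0.601 in the farthest, near the 0.632 of all compared CpGs. The A129-2 level thus stayed within 16.0 to 20.7% from the copies to 10 kb away, and it was the AOS-14 level that was lower far from them. Close to the copies the flanks include other parts of the same 208 bp repeat.

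**Figure D5:**
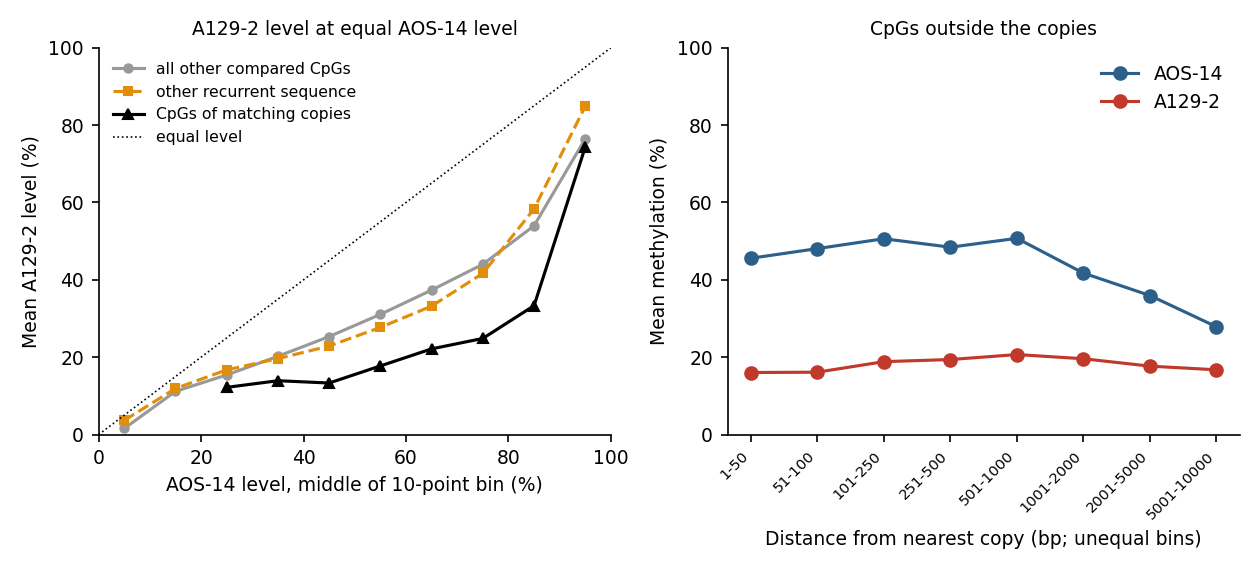
Left, mean A129-2 level (y axis, %) of CpGs binned by their AOS-14 level (x axis, %) for matching copies (black), other recurrent sequence (orange) and all other compared CpGs (grey), with bins under 20 CpGs left out for the copies; the black line is the lowest of the 3 from 20 to 90%. Right, mean methylation (y axis, %) of CpGs outside the copies by distance to the nearest matching copy (x axis, bp, unequal bins); AOS-14 (blue) ends at 27.9% and A129-2 (red) at 16.7%.

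Most units lacked a compared CpG at some position. The 11 positions of the distinct matching units gave 7502 places where the pattern has a CpG. Of these, 4392 (58.5%) were member CpGs and 29.5% were listed in neither table. A further 1.47% were listed in AOS-14 only and 0.813% in A129-2 only, so few places were read in just 1 line. Without the genome sequence, a place listed in neither table may lack a CpG or may be unread, which could not be told apart. The levels above are those of the places that were read in both.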

How the data were processed

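Bisulfite reads of 2 libraries were examined, 1 per line. Per the submitters' processing notes, BSMAP and build mm10 were used. Not given in the sources used here: versions, duplicate removal, and what was done with multiply mapped reads. By the labels' protocols, about 100 Mb was captured and read in pairs of 50 bp, while the titles name RRBS. The authors deposited, per CpG, the methylation level as a fraction and read counts per strand. Levels were recomputed from these deposited counts, as methylated over all reads in percent. Calls used a two-sided Fisher's exact test per CpG, adjusted by Benjamini-Hochberg over 1030368 CpGs and checked on simulated data, and cover counting error of these 2 libraries.

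Copies were matching where at most 30% of letters differed from the consensus. Named copies had the 5 most and 5 least negative differences, the 3 highest levels in A129-2 and 3 lowest in AOS-14, all 11 positions (the 6 deepest), or lay in named genes (12). Some selected by this rule are not printed. Members, lists and rules were chosen with earlier results of these data known. Of the deposited letters around CpGs, 138353 were compared with RefSeq promoters and 138353 matched. Genes came from RefSeq GRCm38.p6. Python 3.11.15, pandas 2.3.3, scipy 1.17.1 and numba 0.67.0 were used. Alternatives varied read minimum, copy length, chromosomes, depth, weighting, strand, CCGG and the size of call.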

Additional observations from a re-analysis of the deposited data

How the results depend on the processing

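A129-2 stayed below AOS-14 in all 15 alternative values of the mean difference. The ratio of the levels ran from 0.265 to 0.380. Each set of values below gives the A129-2 mean, the AOS-14 mean, their difference and their ratio, over member CpGs. They moved beyond the exact 95% interval of the pooled reads, which is narrow at this depth, unless marked as unmoved. With copies found anew at a minimum of 5 reads the values were 20.1% and 56.3%, -36.2 points and 0.357, at 20 reads 19.3% and 57.3%, -38.0 points and 0.337, and at 30 reads 19.0% and 57.4%, -38.3 points and 0.332. Copies with at least 8 member CpGs, of which there were 137 with 1145 CpGs called lower, gave 19.1% and 59.7%, -40.6 points and 0.320. On autosomes AOS-14 was at 56.7% with a difference of -37.2 points, the A129-2 mean and the ratio being unmoved. Without CpGs above the 99th percentile of reads the values were 20.02% and 56.1%, -36.1 points and 0.357. Weighted by reads they were 15.8% and 59.5%, -43.7 points and 0.265, and with each copy weighted equally 19.6% and 56.0%, -36.5 points and 0.349. The forward strand alone gave 19.1% and 56.5% with a ratio of 0.338 and an unmoved difference, and the reverse strand 21.3% and 56.0%, -34.7 points and 0.380. Outside CCGG they were 17.2% and 55.0%, -37.7 points and 0.313. With each chromosome left out in turn, the A129-2 mean ran from 19.0% (without chromosome 14) to 19.7% (without 3), the AOS-14 mean ran from 55.6% (without chromosome 10) to 57.1% (without 9), the difference ran from -37.7 points (without chromosome 14) to -36.1 points (without 10), and the ratio from 0.336 (without 14) to 0.351 (without 10). At a difference of at least 40 points 2117 member CpGs were called lower; at 10 points, with Bonferroni adjustment and under the read minimums the count stayed within 1.5 times of 3561. Chosen after the data were seen, matching copies alone gave 20.1% and 58.8%, -38.7 points and 0.342, and weighted by locus 20.9% and 57.6%, -36.7 points and 0.362. The cause of these shifts was not tested. No paired analysis was possible because there was 1 library per line. Depth limits single CpGs at 10 reads, and the means also moved with the read minimum and with weighting by reads. No replicate check exists, and near-identical copies may share reads.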
